A study of Mus musculus with 9 samples.

Results

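The transcripts of wild-type mouse skin were ranked by abundance on 4 arrays, each hybridised with whole-skin RNA of 1 wild-type mouse. These are 4 of the 9 arrays in the series, and the remaining arrays, from mice without Cd1d, enter no value given here. The mice were C57BL/6 (an inbred laboratory strain), carried both Cd1d alleles (CD1d+/+), had received no UVB irradiation, and were age and sex matched. The labels used here give no age, sex, body site or hair cycle stage. Members were chosen by taking the exponential of each deposited natural log value, which gives the signal in arbitrary units of Microarray Suite 5 (MAS5), and ranking probe sets by the mean of the 4 signals. Of 12488 probe sets, 66 are manufacturer's control probe sets, and the remaining 12422 were ranked. The 4 mice are called wild type 1 to 4, and values are given in that order. Each mouse has 1 array, so a spread between mice holds both the animals' differences and array error, and no repeat array separates them.

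Skin is built of an epidermis, a collagen-rich dermis and a fatty layer, and in rodents a thin sheet of striated muscle, the panniculus carnosus, lies beneath. Keratinocytes divide in the basal layer, switch from keratins 5 and 14 to keratins 1 and 10 as they move up, and end as dead cells whose envelope is made of loricrin and small proline-rich proteins. Hair follicles with sebaceous glands cross these layers, and macrophages, mast cells and Langerhans cells live among them. In such a bulk sample, fewer cells of a type and less RNA per cell cannot be told apart.

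Promoters of some of the brightest genes are shown because the ranking joins genes of very different architecture. RefSeq promoter windows (assembly GRCm38.p6, 250 bases before to 50 after each start) matched 6572 of the 8251 genes on the array and 80 of the 100 genes with the highest mean signal. The printed stretches are the 120 bases before the start, 5′ to 3′ on the gene's own strand. Capitals mark TATAAA (the TATA box core), TGANTCA (an AP-1 type motif) and CCGGAAG (an ETS type motif).
Lor (chr3:92083143-92083262, minus strand): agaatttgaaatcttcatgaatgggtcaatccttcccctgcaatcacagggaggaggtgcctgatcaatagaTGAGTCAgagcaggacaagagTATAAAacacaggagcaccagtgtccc
Sprr1b (chr3:92438780-92438899, minus strand): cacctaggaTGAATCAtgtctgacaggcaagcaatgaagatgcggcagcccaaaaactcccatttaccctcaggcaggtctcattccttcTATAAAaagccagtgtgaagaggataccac
Sprr1a (chr3:92485882-92486001, minus strand): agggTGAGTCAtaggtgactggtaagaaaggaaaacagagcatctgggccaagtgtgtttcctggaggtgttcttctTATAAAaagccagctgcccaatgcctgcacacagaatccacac
Krtdap (chr7:30787785-30787904, plus strand): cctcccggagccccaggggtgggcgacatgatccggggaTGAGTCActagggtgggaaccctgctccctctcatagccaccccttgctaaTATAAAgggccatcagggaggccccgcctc
Krt10 (chr11:99389365-99389484, minus strand): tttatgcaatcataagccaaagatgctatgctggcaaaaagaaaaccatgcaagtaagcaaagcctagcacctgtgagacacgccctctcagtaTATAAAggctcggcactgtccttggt
Myh4 (chr11:67237692-67237811, plus strand): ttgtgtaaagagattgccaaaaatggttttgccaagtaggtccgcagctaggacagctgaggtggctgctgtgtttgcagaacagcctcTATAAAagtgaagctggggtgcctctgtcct
Rpl41 (chr10:128549169-128549288, minus strand): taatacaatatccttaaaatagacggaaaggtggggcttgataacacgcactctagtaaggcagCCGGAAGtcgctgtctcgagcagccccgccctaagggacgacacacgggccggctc

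The epidermal and muscle genes printed above hold TATAAA close to their start. The printed stretch of Rpl41 holds no TATAAA, and its CCGGAAG lies further from the start. With both strands searched in the whole window, TATAAA was present in 26 of the 80 matched top genes (32.5%) and in 12.2% of all matched genes on the array. Among 13 matched genes of the cornified layer, 8 held TATAAA and 6 held TGANTCA, which 7.52% of matched array genes hold. TATAAA was present in 2 of 10 matched suprabasal genes, and both are among the promoters printed here, and in 6 of 21 matched skeletal muscle genes. Among 25 matched cytosolic ribosomal protein genes, 10 (40%) held CCGGAAG, against 17.1% of matched array genes, and 4 held TATAAA. These counts describe letters in a window and were not tested.

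The 4 arrays were on a common scale, with a mean signal trimmed by 2% at each end of 200.11 to 200.133. Their median signals were 84.2, 72.6, 82.8 and 85.85, so the array of wild type 2 had the lowest median. The 100 brightest probe sets held 18.9%, 21.0%, 19.8% and 18.4% of the summed signal (19.5% ± 1.13, SD, n = 4), the largest share again in wild type 2. The ratio of 3′ to 5′ control signal, a measure of RNA integrity, ran from 1.11 to 1.21 for actin and from 0.861 to 1.03 for Gapdh. Wild type 1 was deposited with 9 decimals and the other mice with 7, and the part of this difference in any result was not tested.

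The brightest transcripts of wild-type skin came from the protein synthesis machinery, fast skeletal muscle, suprabasal and cornified keratinocytes, lipid handling and antigen presentation. Of the 100 brightest probe sets, 65 represent 1 gene, 26 represent several and 9 have no gene name here. Over all 8251 genes on the array, 61 (0.739%) had their brightest probe set among these 100. Ribosomal protein genes account for 15 of the 65, and 18 of the 26 include a ribosomal protein gene. Ranked by gene, with the brightest probe set standing for each gene, the top 100 held 14 genes of the ribosomal protein list, 11 of the epidermal lists, 8 of the skeletal muscle list and 6 H2 genes of the major histocompatibility complex, while 41 were in none of the lists. Probe sets differ in how strongly they respond to the same RNA, so this is an order of signals and not of molar amounts.

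**Figure D1:**
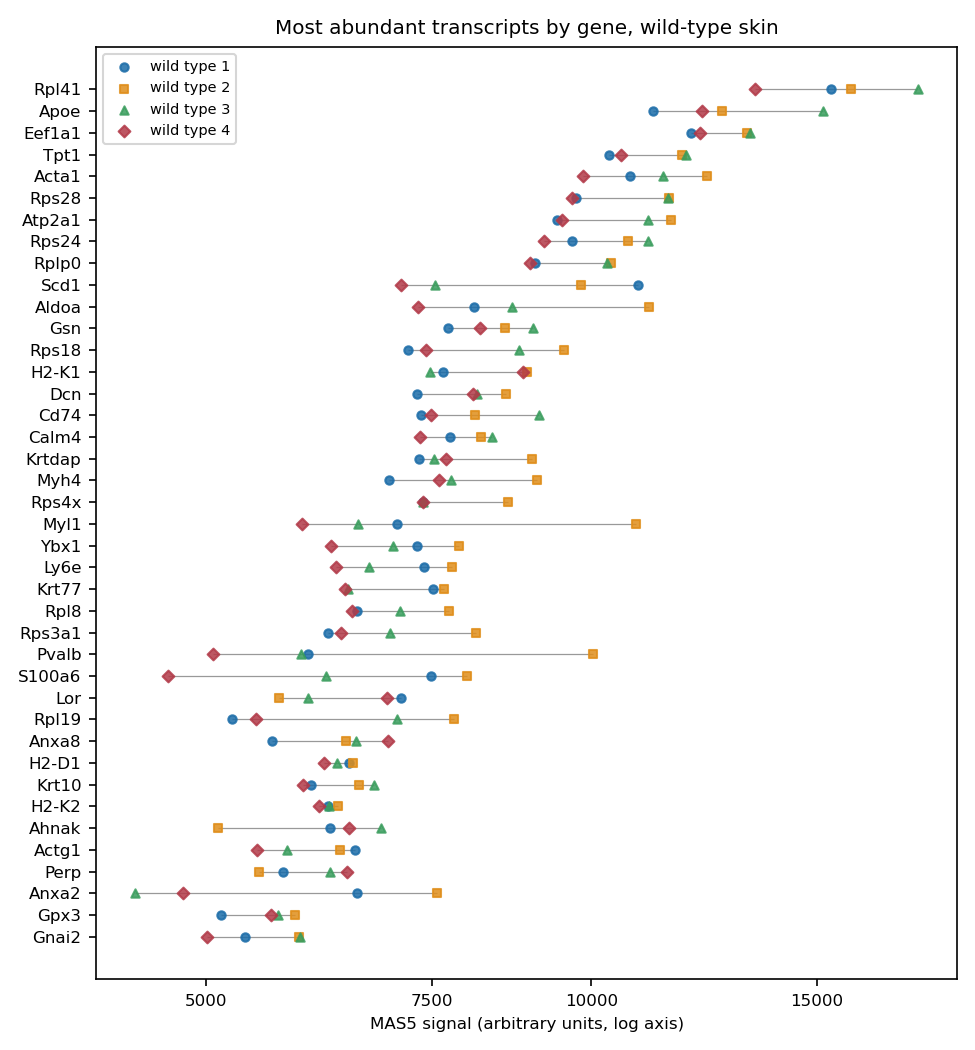
Signal of the 40 genes with the highest mean, on a logarithmic axis in arbitrary MAS5 units. Each symbol is 1 of the 4 wild-type mice and the grey line joins the lowest and highest mouse. Rpl41 leads at 13409.7 to 17992.4, and the muscle genes Myl1 and Pvalb are brightest in wild type 2.

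Rpl41, which encodes a very small protein of the large ribosomal subunit, had the highest signal, at 15395.6, 15949.3, 17992.4 and 13409.7 (15687 ± 1885, SD, n = 4). Apoe, the lipid carrier apolipoprotein E, came next at 11164.7, 12647.6, 15171.7 and 12206.1 (12798 ± 1701). Eef1a1, the elongation factor that brings aminoacyl-tRNA to the ribosome, read 12662 ± 696. Wild type 3 was the highest mouse for each of these genes, and Apoe overlapped the range of Eef1a1, so their order is not settled by these mice. Tpt1 (11129 ± 805), a growth-related calcium-binding protein, Rps28 (10587 ± 1031), Rps24 (10147 ± 874) and the ribosomal stalk protein gene Rplp0 (9658 ± 763) followed closely, with overlapping ranges between neighbours. These ranks rest on the brightest probe set of each gene. Other probe sets of Rps28 had means of 6974 and 65.8, and another of Rps24 had 38.1.

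The rank boundary at 100 was not a step, since the probe set at rank 100 had a mean of 4556.7 and the next 4533.8. Even so, 79 of the 100 probe sets stood in the top 100 of every mouse. The highest mouse exceeded the lowest by a median of 1.27-fold in the top 100, beside 1.41-fold over all probe sets with a mean of 200 or more. In the top 100, only Ldha, lactate dehydrogenase A of anaerobic glycolysis, reached a ratio of 2, with 5062.1, 7144.1, 4350.4 and 3322.2. Wild type 2 was its highest mouse and wild type 4 its lowest.

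Marker lists placed these signals in layers of the skin. A gene was counted in the top 10% of all probe sets when its mean was 604.6 or more, which 12.2% of the 8251 genes on the array reached. As a check of level, 24 markers of liver, pancreas, retina, testis and milk had a median mean signal of 13.4, and 19 of them were under 50. No detection calls were used, so this list gives the only guide to background. Of that list, 3 genes reached a mean of 200 or more. The brightest was Cyp2e1, an ethanol- and fatty-acid-oxidising cytochrome that is also made in fat, at 1556 ± 611.

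**Figure D2:**
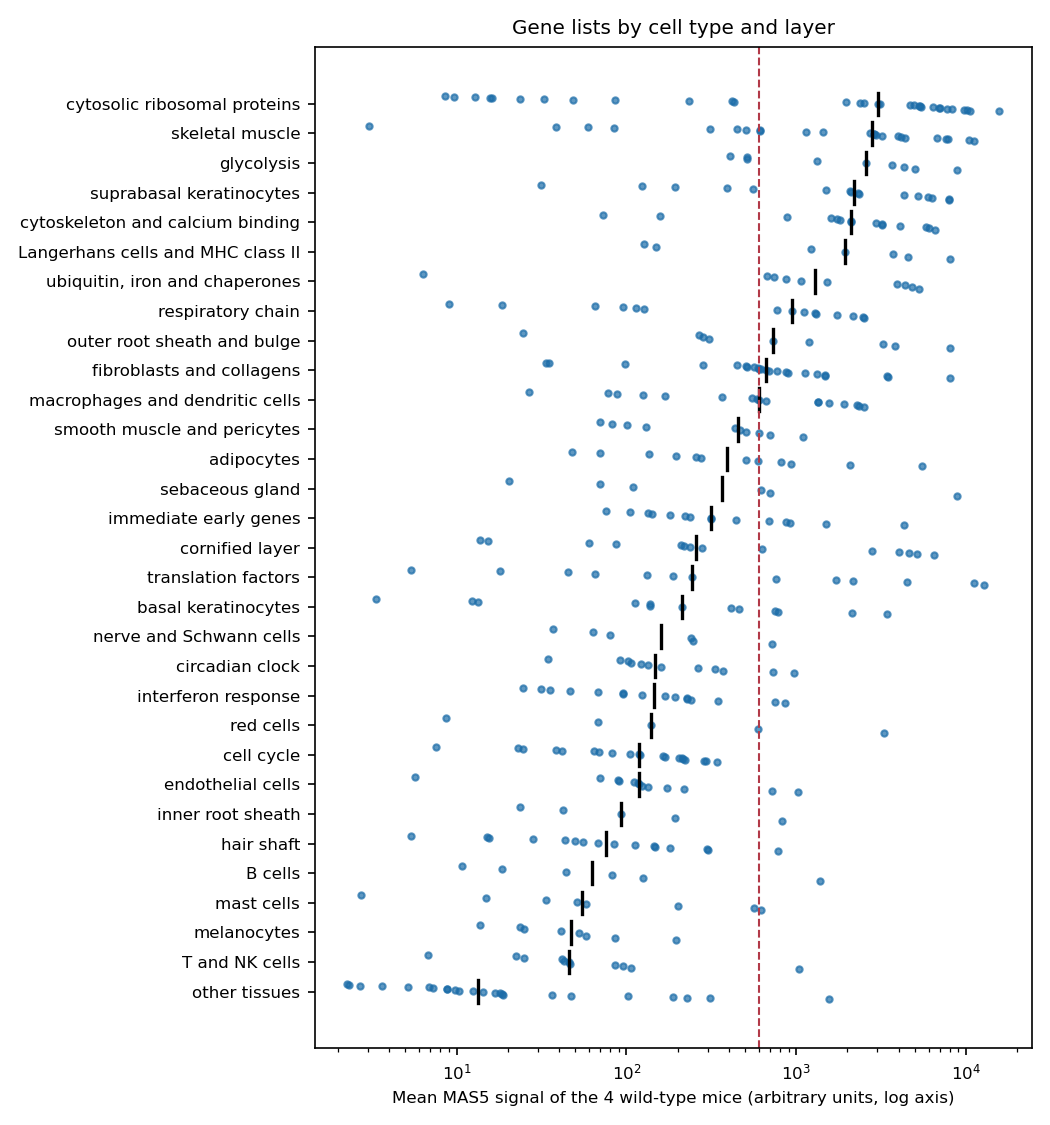
Mean signal of each measured gene of the marker and housekeeping lists over the 4 wild-type mice, on a logarithmic axis in arbitrary MAS5 units. Each point is 1 gene, the black tick is the median of the list and the dashed line is the top-10% level of 604.6. Ribosomal protein and skeletal muscle genes lie mostly to the right of the line and the markers of other tissues mostly far to the left.

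Of the epidermal lists, that of suprabasal keratinocytes had the highest median signal, which orders probe sets and not the layers themselves. Of 16 measured genes 11 were in the top 10%, and the median member stood at the 98.0th percentile of all probe sets. Calm4, a calmodulin-like protein of differentiating keratinocytes, read 7751, 8202.8, 8355.2 and 7340.3. Krtdap, a secreted keratinocyte differentiation protein, read 7327.9, 8980.9, 7531.9 and 7693.9, and Krt10, the type I keratin of suprabasal cells, read 6035.1, 6582, 6766.8 and 5946.7. The SDs of these genes lay between 403 and 747. Perp (5981 ± 442) and Dsp (4313 ± 147), both needed for desmosomes, and Lgals7 (5221 ± 1480), a galectin of stratified epithelia, were also in the top 100 genes. Other members were dimmer or varied more. Krt1, the type II partner of Krt10, read 2736.4, 2131.7, 1295.2 and 2205.7, lowest in wild type 3, and Fabp5, an epidermal fatty acid-binding protein, had a highest-to-lowest ratio of 2.46. Krt2 (123 ± 16.3) and Dmkn (31.4 ± 6.73) were dim. Krt77, a type II keratin outside the list, read 7012 ± 674.

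The cornified layer was split between very bright and dim genes. Of 14 measured members 6 were in the top 10%. Lor, loricrin, the main protein of the cornified envelope, read 7093.4, 5704.2, 6000.9 and 6921.5, and was lowest in wild type 2. Sprr1a and Sprr1b, small proline-rich envelope precursors cross-linked by transglutaminases, read 4633 ± 389 and 5134 ± 1249. Asprv1, a protease that processes filaggrin, read 4017 ± 534 and Cdsn, corneodesmosin, 2783 ± 238. Flg, filaggrin itself, reached only 625 ± 166 on its probe set, and involucrin (Ivl, 60.4 ± 11.3), Sprr3 (15.3 ± 8.50) and Tgm3 (13.7 ± 4.62) were near or not far above the level of the other-tissue markers.

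Basal keratinocytes gave mixed readings. Col17a1, the hemidesmosomal collagen XVII, read 3239, 3079.6, 3664.1 and 3730.6, and Itgb1, the integrin beta-1 chain, read 2129 ± 153. Lamb3 (776 ± 131) of laminin-332 and Itgb4 (745 ± 54.2) of the hemidesmosome were also in the top 10%, and Trp63, the transcription factor of epithelial stem cells, read 458 ± 97.1. In contrast, the defining basal keratins Krt14 (5.6, 30.1, 10 and 7.8), Krt5 (16.9, 17.5, 7.4 and 7.2) and Krt15 (1.3, 2.8, 5.7 and 3.6) stayed at the level of the other-tissue markers in every mouse. The list median was at the 71.3rd percentile, with 4 of 13 genes in the top 10%.

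The basal keratin readings stand beside a large disagreement between probe sets of the same gene on this array. Among 997 genes with several probe sets, the brightest at 200 or more, the brightest exceeded the dimmest by a median of 8.29-fold, and 46.9% differed by at least 10-fold. Krt10 had a probe set at 6333 and another at 13.5, and Lor had 6430 and 9.98. The gene's own probe sets for beta-actin (Actb) read 876 and 522, while the control probe set at the 3′ end of actin read 9905. A low signal of a single probe set therefore gives no level for its gene.

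Follicle compartments differed widely. The outer root sheath list, which also holds decorin of dermal fibroblasts, had 5 of 9 genes in the top 10%, led among keratins by Krt6a (3835 ± 1147) and Krt17 (3250 ± 699.9), which mark the companion layer, the outer root sheath and stressed epidermis. The sebaceous list had 3 of 6, with Scd1, the desaturase that makes monounsaturated fatty acids, at 10875.4, 9808.2, 7543.6 and 7099.6. Wild type 1 and 2 were higher for Scd1 than wild type 3 and 4, without overlap. Hair shaft genes were low, with 1 of 16 in the top 10% (Krtap5-1, a keratin-associated protein, 780 ± 43.7).

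The 3 measured inner root sheath keratins, made only in growing follicles, differed sharply between the mice. Krt71 read 216.6, 55.5, 445.8 and 54.8, and Krt27 read 93.7, 30.4, 233.1 and 12.9. Krt25 read 13.4, 3.8, 148.3 and 3, so wild type 3 was highest for all these keratins, wild type 1 came next, and wild type 2 and 4 were low. The other measured members of the list did not share this order. Tchh, trichohyalin, read 27.6, 20.9, 7.8 and 37.8, and Gata3, a transcription factor of the inner root sheath and other cells, read 779, 638.2, 891.7 and 988. S100a3, a calcium-binding protein of the hair cuticle, was also highest in wild type 3 (121.2, 85.8, 284.5 and 85.7), as was the hair keratin gene Krt81 (260.2, 218.8, 461 and 272.7). The pattern was noticed in these values and not tested, and except for Krt81 and Gata3 these genes lie under the mean of 200 used for the spread between mice.

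Dermal genes were bright and collagens varied between mice. Of 23 fibroblast and collagen genes 13 were in the top 10%. Dcn, the collagen-binding proteoglycan decorin, read 7304.6, 8579.6, 8132.7 and 8074.4, within a narrow range. Col1a1 and Col1a2, the chains of type I collagen, read 4427.5, 4198, 2555.5 and 2679.4, and 4121.4, 3729.2, 2922.4 and 2873. Col3a1, type III collagen, read 2039, 1670.6, 903.8 and 686.9. Wild type 1 and 2 were above wild type 3 and 4 in each of these collagens, while decorin showed no such order.

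In the fatty layer, 4 of 12 adipocyte genes were in the top 10%. Car3, a carbonic anhydrase abundant in fat and in slow muscle, read 5524 ± 296. Adipoq, the adipocyte hormone adiponectin, read 1709.2, 3122.4, 1673 and 1804.8, and stood apart in wild type 2. Retn, the adipokine resistin, read 838.6, 1541.3, 448.7 and 410.3, while Lep, leptin, read 593 ± 92.1.

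Skeletal muscle was among the brightest lists, with 17 of 24 genes in the top 10% and a median at the 98.5th percentile. Acta1, skeletal alpha-actin, read 10719.8, 12308.8, 11369.7 and 9846.9. Atp2a1, the calcium pump of fast-twitch fibres, read 9403.5, 11537.6, 11075.4 and 9479.4, and Myh4, the fastest myosin heavy chain, read 6949.1, 9066.9, 7769.6 and 7594.8. Wild type 2 was highest for all these genes. The same mouse stood further apart for Myl1, a fast myosin light chain (7045.8, 10837.7, 6569.3 and 5944.5), and for Pvalb, the calcium buffer parvalbumin of fast fibres (6000.6, 10029.8, 5932.4 and 5058.8). Smooth muscle and pericyte genes were less bright, with 2 of 10 in the top 10%, led by Mylk (1090 ± 87.2), the kinase that starts smooth muscle contraction.

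Among immune cells, antigen-presenting and phagocytic genes were bright. Cd74, the invariant chain of MHC class II, read 7361.9, 8113.3, 9094.3 and 7497, and 5 of 7 genes of the class II list were in the top 10%, including H2-Aa (4557 ± 552) and H2-Eb1 (3689 ± 337). Of 17 macrophage and dendritic cell genes 8 were in the top 10%, among them the complement genes C1qc (2486 ± 286) and C1qa (2279 ± 197) and Lyz2, lysozyme of myeloid cells (2323 ± 243). Class I genes H2-K1 (8218 ± 754) and H2-D1 (6370 ± 146) were also bright, although probe sets of the H2 family may cross-react between near-identical members.

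In the T and NK list 1 of 11 genes was in the top 10%, near the share of all genes. It was Thy1, a surface protein that fibroblasts and nerves also carry, at 1440.8, 1365.2, 758.4 and 561.5. Cd4 read 106 ± 25.1 and Cd3e, a chain of the T-cell receptor complex, 95.8 ± 64.6. The B-cell list also had 1 of 6 in the top 10%, the immunoglobulin heavy chain gene Ighm (1380 ± 308), whose next brightest probe set read 278 and which left the top 10% by the median over all its probe sets. Mast cell proteases were lower, with Tpsb2 at 622 ± 70.5 and Cma1 at 566 ± 73.9. None of 8 melanocyte genes was in the top 10%, and the brightest, the melanin enzyme gene Dct, read 196 ± 17.5.

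Endothelial genes had 2 of 13 members in the top 10%, Cav1 (1027 ± 163), the caveolar coat protein, and Eng (716 ± 56.4), a co-receptor of the TGF-beta family. Of 5 red cell genes only Hba-a1, alpha-globin, was in the top 10%, at 2717.9, 3467.9, 2906.1 and 4076.4, with wild type 4 highest. Of 6 nerve and Schwann cell genes only the myelin gene Pmp22 (717 ± 27.6) was. None of 20 cell cycle genes was in the top 10%, and Pcna, the replication clamp, was the brightest at 341 ± 143. Xist, the RNA of the inactive X chromosome, read 194.8, 125.5, 329.3 and 227.4, and 3 Y-linked genes read 6.4 or less in every mouse.

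Of 31 cytosolic ribosomal protein genes 19 were in it, with means that ran from 8.52 to 15687 although their products are built into ribosomes in equal numbers. Other such lists gave 13 of 15 for the cytoskeleton and calcium binding, 9 of 15 for the respiratory chain and 6 of 9 for glycolysis. S100a6 (6589 ± 1490) and Anxa2 (5831 ± 1495), calcium-dependent membrane-associated proteins, led the first of these together with Actg1, the cytoplasmic gamma-actin (6042 ± 497).

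The spread between the 4 mice was measured as the ratio of the highest to the lowest signal. Of 3719 probe sets with a mean of 200 or more, 355 (9.55%) had a ratio of 2 or more, and by gene 276 of 3046 (9.06%) did. Wild type 2 was the highest mouse in 143 of the 355 (40.3%) and the lowest in 159 (44.8%). Among all 3719 probe sets it was the highest in 34.9% and the lowest in 36.2%. Without that mouse 110 of 3745 probe sets (2.94%) reached the ratio. Over the 3719 probe sets, log2 signals correlated most closely between wild type 3 and 4 (r = 0.969) and least between wild type 2 and 4 (r = 0.896), as a description across probe sets.

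Several gene lists differed in level between the mice. The level of a list in a mouse is the median, over genes with a mean of 100 or more, of log2 signal minus the gene's mean over the 4 mice. Over all 4526 such genes it was 0.01, -0.04, 0.02 and 0.03, and 7 of 23 lists spanned 0.5 or more between the highest and lowest mouse. The list of other-tissue markers was among the 7, with a span of 0.55 over the 5 of its 24 genes that reached a mean of 100. These include Cyp2e1, which is also made in fat, and 4 of the 5 were highest in wild type 3. A span above 0.5 was thus also seen in a list not chosen to mark skin. No other background for the spans was computed. Because wild type 2 has the lowest array median, centring the arrays on their medians adds 0.16 (log2) to that mouse and takes 0.05, 0.03 and 0.08 from the others.

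Wild type 2 was the highest mouse for lists of energy metabolism, muscle and other cell functions. The respiratory chain list stood at -0.01, 0.62, -0.16 and -0.36, and 10 of its 11 genes were highest in wild type 2, as were 30.7% of all 4526 genes. Glycolysis stood at 0.09, 0.46, -0.20 and -0.38, with 8 of 9 genes highest in that mouse, and skeletal muscle at -0.09, 0.37, -0.02 and -0.22, with 16 of 20. The cytoskeleton and calcium binding list stood at 0.12, 0.34, -0.11 and -0.27 (11 of 14 highest in that mouse), ribosomal proteins at -0.09, 0.18, 0.03 and -0.11 (16 of 22), and ubiquitin, iron and chaperones at -0.01, 0.26, -0.09 and -0.10 (7 of 9). These lists are bright, and the 30.7% is not matched to their level. The 100 brightest probe sets of any kind held 21.0% of the summed signal in wild type 2, beside 18.4% to 19.8% in the other mice. The part of brightness in these counts was not tested. Cox7a2, a subunit of cytochrome oxidase, read 1623.5, 2575.4, 1443.9 and 1257.2, and Tpi1, triose phosphate isomerase, read 3714.4, 5440.2, 2853.6 and 2558.6. Wild type 2 stayed highest and wild type 4 lowest for the respiratory chain, glycolysis, muscle and cytoskeleton lists when the arrays were centred on their medians or quantile normalised. Under quantile normalisation wild type 3 became the highest mouse for ribosomal proteins and the lowest for ubiquitin, iron and chaperones. The span of the ribosomal list was then 0.07, beside 0.29 on the deposited scale. Muscle fibres are themselves rich in glycolytic and respiratory RNAs, so the muscle, glycolysis and respiratory chain lists overlap in what they measure, and the part of the amount of muscle in each piece of skin was not tested.

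Cell cycle and fibroblast genes were lower in wild type 3 and 4. Cell cycle genes stood at 0.43, 0.20, -0.17 and -0.35, and all 12 that reached a mean of 100 were lowest in wild type 3 or wild type 4, as were 42.9% of all 4526 genes. Mcm5, a subunit of the replicative helicase, read 443.2, 264.3, 244.4 and 188.6, and Cdc20, which activates the anaphase-promoting complex, 301.1, 263.5, 167.2 and 126.9. Fibroblast and collagen genes stood at 0.23, 0.34, -0.21 and -0.27, with 16 of 20 lowest in wild type 3 or 4. For both lists wild type 1 and 2 stayed above wild type 3 and 4 after median centring and after quantile normalisation. Suprabasal genes stood at -0.03, 0.05, 0.01 and -0.03, the narrowest span of the 23 lists on the deposited scale (0.08). Their span was 0.32 after median centring, where the span of immediate early genes was narrower (0.08), and wild type 2 became their lowest mouse under quantile normalisation.

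**Figure D3:**
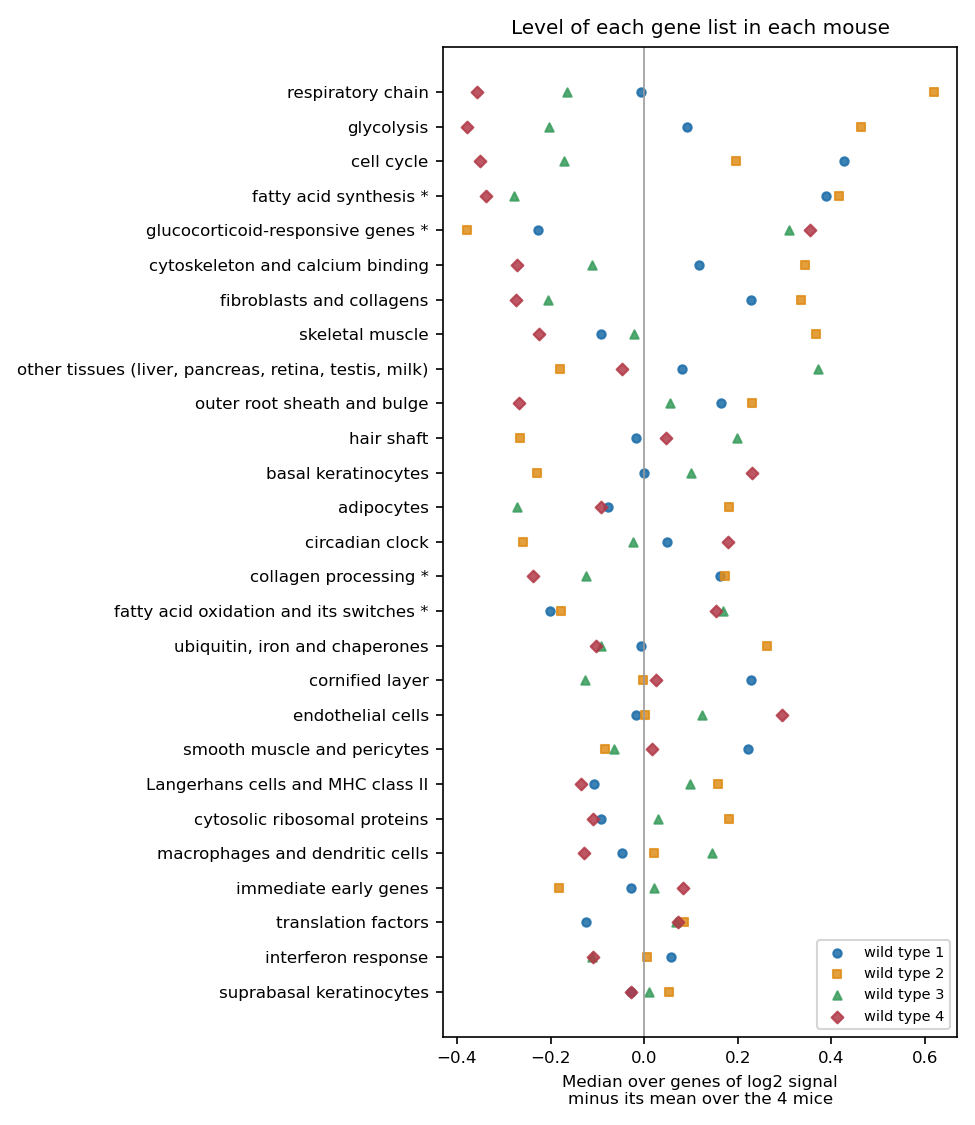
Level of each gene list in each mouse, as the median over genes of log2 signal minus the gene's mean over the 4 mice. Symbols mark the 4 mice, lists are ordered by the span between highest and lowest mouse, and an asterisk marks the 4 lists written after per-mouse values were seen. The respiratory chain list spans -0.36 to 0.62 and the suprabasal list -0.03 to 0.05.

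The 30 most variable genes, ranked by the SD of log2 signal among those with a mean of 200 or more, were chosen on these values and are described without a test. Of the 30, 11 (36.7%) were highest in wild type 2, 8 (26.7%) in wild type 4, 7 (23.3%) in wild type 3 and 4 (13.3%) in wild type 1. Over all 3719 probe sets with a mean of 200 or more, these shares were 34.9%, 25.2%, 21.1% and 18.8%, so they lay close together. The lowest mouse was wild type 2 in 13 (43.3%) and wild type 4 in 13 (43.3%), beside 36.2% and 25.7% of all 3719 probe sets.

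**Figure D4:**
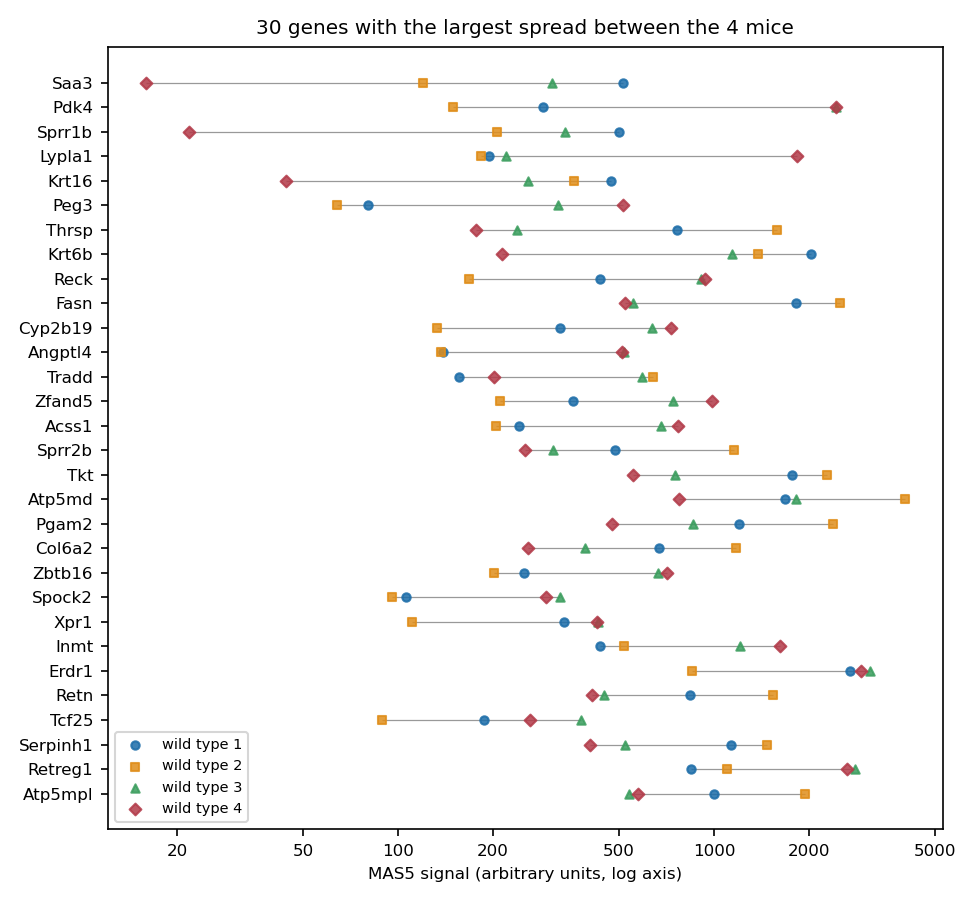
Signal of the 30 most variable genes in each of the 4 wild-type mice, on a logarithmic axis in arbitrary MAS5 units, ordered by the SD of log2 signal. Each symbol is 1 mouse and the grey line joins the lowest and highest. Pdk4 and Angptl4 are high in wild type 3 and 4, and Fasn, Thrsp and Tkt are high in wild type 1 and 2.

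Genes of fat burning were high in wild type 3 and 4. Pdk4, the kinase that shuts off pyruvate dehydrogenase in fasting, read 286.8, 149.6, 2427.3 and 2424.6. Angptl4, a fasting-induced inhibitor of lipoprotein lipase, read 139, 136.7, 518 and 509.9, and of its 3 other probe sets 1 read 106.8, 94.7, 316.2 and 263.5. The other two did not separate the mice in this way, at 117.4, 52.4, 116.1 and 107.9, and at 9.9, 6.4, 11.8 and 7.9. Cpt1a, the carnitine palmitoyltransferase that admits fatty acids to mitochondria, read 776.9, 530.9, 1306.6 and 1436.1. On the probe sets that chose them and for Cpt1a, the values of wild type 1 and 2 and those of wild type 3 and 4 did not overlap.

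Genes of fat synthesis showed the opposite order. Fasn, fatty acid synthase, read 1815.4, 2509.1, 555.8 and 521. Thrsp, a nuclear protein that promotes lipogenesis, read 765.9, 1580.3, 238.7 and 177, and Tkt, transketolase of the pentose phosphate pathway, read 1767.1, 2278.5, 750.4 and 555.1. Wild type 1 and 2 were above wild type 3 and 4 in each. A list of fatty acid synthesis genes written after these values were seen stood at 0.39, 0.42, -0.28 and -0.34, with 12 of 13 genes lowest in wild type 3 or 4, beside 42.9% of all genes. A list of fatty acid oxidation genes, likewise written afterwards, stood at -0.20, -0.18, 0.17 and 0.15, with 12 of 14 genes highest in wild type 3 or 4, as were 49.5% of all 4526 genes. Because both lists were written with the values known, their directions and counts are not independent evidence.

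Several genes that respond to glucocorticoids followed the oxidation genes. Zbtb16, a zinc-finger repressor, read 250.9, 201.7, 667.1 and 711. Its other probe set was dim and high in wild type 3 only, at 11.9, 12.8, 62.2 and 15.7. Per1, a circadian clock gene that is also glucocorticoid-induced, read 146.5, 136.8, 380.3 and 387, and Fkbp5, a co-chaperone of the glucocorticoid receptor, read 478.9, 368.3, 675.5 and 699. In a glucocorticoid-responsive list, all 14 genes with a mean of 100 or more were highest in wild type 3 or 4. The share over all 4526 genes was 49.5%. Of the 14, 2 were also lowest in wild type 3 or 4. The brightest member, Mt2, was 1 of these, at 3671.2, 3863.5, 4982.9 and 3364.2. The list stood at -0.23, -0.38, 0.31 and 0.35. This list too was written after the values were seen, so its direction is not independent evidence. The clock list as a whole stood at 0.05, -0.26, -0.02 and 0.18, and Dbp, a clock output gene, read 409.3, 442.4, 262.2 and 218.1, the reverse of Per1. Feeding, handling and time of sampling are not given in the labels used here.

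Among the 30 variable genes, stress keratins and Saa3 were low in wild type 4. Krt6b read 2020.6, 1379.8, 1136.5 and 212.8, and Krt16, its type I partner in hair follicles and wounded epidermis, read 472.9, 361.4, 257.5 and 44.2. Krt6a, a close relative of Krt6b, read 5182, 3855.1, 3925.4 and 2377.5. Saa3, an acute-phase serum amyloid made in inflamed tissue, was the most variable gene, at 513.6, 120.3, 306.6 and 15.9. Wild type 4 was lowest and wild type 1 highest in all of these. Sprr1b had the same highest and lowest mouse on its variable probe set (499.9, 205.8, 336.9 and 21.8), and so did its brighter probe set over a narrower span, 6347.9, 5721.5, 5020.3 and 3446.3. Sprr2b, of the same envelope family, had another order, at 485.5, 1153.2, 309 and 251.9. By its level the cornified list as a whole was not low in wild type 4, at 0.23, -0.00, -0.13 and 0.03. Of its genes 3 of 10 were lowest there, as were 23.7% of all 4526 genes. Cdsn was highest in that mouse (2874.6, 2475.5, 2744.5 and 3039.3).

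Matrix genes were among the 30 as well. Serpinh1, the collagen chaperone Hsp47, read 1129.9, 1472.1, 523.6 and 404.8, and Col6a2, a chain of type VI collagen, read 669.3, 1174.2, 390.5 and 257.1. Reck, a membrane inhibitor of matrix metalloproteinases, ran the other way, at 435.8, 167.4, 909.6 and 933.1. Collagen processing genes, again a list written afterwards, stood at 0.16, 0.17, -0.12 and -0.24, and 6 of 8 were lowest in wild type 3 or 4, beside 42.9% of all genes. Their direction and count are likewise not independent evidence.

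Other probe sets of a gene showed the same order of mice for some of the variable genes and not for others. Peg3, an imprinted zinc-finger gene, read 80.5, 64, 320.6 and 513.7, and further probe sets read 37, 14.1, 107.7 and 142.2, and 73.8, 55.7, 198.8 and 182. Lypla1, a protein depalmitoylase, read 193.7, 183.3, 219.3 and 1828.4 on its variable probe set, while its brightest other probe set read 626.4, 484.6, 481.9 and 575.4, so the high value of wild type 4 was seen on 1 of its 5 probe sets. Over 280 genes with a second probe set at 200 or more, the highest mouse was the same for both in 130 (46.4%), and in 20 of 28 (71.4%) where the brighter probe set had a ratio of 2 or more.

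At the other end, some genes were nearly equal in all mice. Maea, a subunit of a ubiquitin ligase that acts in erythroblast development, read 576.9, 568.1, 573.2 and 586.7. Srpr, a subunit of the signal recognition particle receptor, read 1294.2, 1304.4, 1310.5 and 1264.9, and the interleukin-10 receptor chain Il10rb 510.2, 507.7, 519.6 and 525.4. The class I gene H2-K2 had the second-smallest SD, at 6221.4, 6334.3, 6231.4 and 6121.9. Probe sets were grouped by mean signal at 200 to 500, 500 to 1000, 1000 to 2000, and 2000 or more. In these ranges 10.1%, 8.64%, 10.5% and 7.27% had a ratio of 2 or more. The median SD of log2 signal was 0.23, 0.21, 0.22 and 0.18, so neither measure fell steadily with level.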

How the data were processed

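RNA of 4 wild-type mice was measured on Affymetrix MG-U74 arrays, 1 array a mouse. Per the labels, the authors computed signals with Microarray Suite 5 (MAS5), and the deposited values are natural log values. The log base was settled from the numbers, since the exponential of every value is a multiple of 0.1 within 0.002. No renormalisation, pseudocount or count model was used, detection calls were not used here, and the number of arrays limits the precision. The platform's annotation gave 1 gene for 10833 probe sets, several for 396 and none for 1193, and 10817 matched GRCm38.p6 gene entries by Entrez identifier. Probe sets with several genes were not named. For levels and lists, a gene was represented by its probe set with the highest mean, and in the rankings of largest and smallest SD by the probe set with that SD, which for Sprr1b is a dimmer one. Errors are SDs over 4 mice. No test was run, because 1 group of mice is described.

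Named were the 40 brightest genes, up to 4 of each list, the 30 with the largest and the 10 with the smallest SD of log2 signal at a mean of 200 or more. Genes beyond this rule, such as Krt14, Krt5, Krt15, Trp63, Lgals7, Dsp, Cdsn, Flg, Ivl, Sprr3, Tgm3, S100a3, Col3a1, Lep, Cdc20, Per1, Cpt1a, Fkbp5 and Actb, were picked with their values in view. The members and 32 lists were chosen with earlier results of these data known, and 4 lists were added after the per-mouse values were seen. Alternatives covered averaging, scaling, the filter, the pseudocount and leaving out each mouse. Scripts ran in Python 3.11.15 with numpy 2.4.6, pandas 2.3.3 and statsmodels 0.14.6, and were tested on simulated data.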

Additional observations from a re-analysis of the deposited data

Results flagged for a closer look

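Among 177 named probe sets, 8 (4.52%) had a mouse far from the other mice of its group, meaning that its gap to the nearest mouse, as a share of the whole range, was above Dixon's critical value for 4 samples. Chance gives such a gap in about 1 in 20 groups of 4 values, and over all 3719 probe sets with a mean of 200 or more 213 (5.73%) had it. Wild type 2 stood apart for Rps4x, a ribosomal protein of the small subunit, at 8603.6 beside 7382 to 7386.6. It also stood apart for Adipoq at 3122.4 beside 1673 to 1804.8, and for Tmsb4x, the actin-sequestering thymosin beta-4, at 5368.2 beside 3540.1 to 3748.9. The same mouse was low for Pabpc1, the poly(A)-binding protein, at 1471.5 beside 2297.2 to 2491.8, and for Erdr1, at 848.8 beside 2692.9 to 3105.9. Wild type 1 was high for Mc5r, the melanocortin receptor of sebaceous glands, at 169.4 beside 82.9 to 92.2, and for Pmel, a melanosome matrix protein, at 109.8 beside 76.5 to 78.9. Wild type 4 was high for Lypla1 at 1828.4 beside 183.3 to 219.3, on 1 of the gene's 5 probe sets.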

How the results depend on the processing

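The top 100 shared 97 to 100 probe sets with the ranking by mean signal under other averages, scalings and without any 1 mouse, but 61 when 1 single-gene probe set stood for each gene. Without each mouse in turn, the share of summed signal held by the top 100 ran from 19.0% to 19.9% and list members in the top 10% from 157 to 162 (159 with all mice). With the median over all probe sets of a gene in place of its brightest, members in the top 10% numbered 3 for the cornified layer, 8 for fibroblasts and collagens and 5 for macrophages and dendritic cells (6, 13 and 8 with the brightest), 5 for ubiquitin, iron and chaperones (from 9), 1 each for endothelial and interferon genes (from 2), and 0 for B cells, mast cells and nerve (from 1). The count of probe sets with a ratio of 2 or more (355 at a mean of 200 or more) was 678 of 5672 at a mean of 100, 140 of 1581 at 500, 4519 of 12422 with no filter and 217 with 64 added to the signal. It ran from 110 to 308 without each mouse, lowest without wild type 2. Of the 30 most variable genes, 13 were shared at a mean of 100, 18 at 500 and 1 with no filter, and 19 to 26 without each mouse, with 19 both without wild type 2 and without wild type 4. Lists spanning 0.5 or more numbered 7 of 23, 12 of 31 with no filter, 11 of 23 after median centring, 5 of 23 after quantile normalisation and 2 of the 4 added lists. The highest-minus-lowest order reversed under quantile normalisation for suprabasal (-0.12) and class II genes (-0.035). The cause of these shifts was not tested. No paired analysis was possible because 1 group of mice is described and no result comes from a test. MAS5 gives dim probe sets a large relative error, and signals near those of the other-tissue markers cannot be told from background.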

Other observations

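The array's control probe sets for pyruvate carboxylase, which the ranking leaves out, followed the order of the fat synthesis genes. This biotin enzyme refills the citric acid cycle and is abundant in lipogenic tissue. Its 3′ probe set read 548.2, 941.6, 385.5 and 299.3 in wild type 1 to 4, and its 5′ probe set read 266.1, 269.7, 94.9 and 124.2. The probe sets between them read 350.5, 389.5, 80.5 and 95.5, and 338.9, 412.6, 116.2 and 139.6. Wild type 1 and 2 were above wild type 3 and 4 on all 4 probe sets. The control CreX of the hybridisation mix read 5747, 5909.5, 6480.3 and 5327.6.

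Cyp2e1 was higher in wild type 3 and 4, at 1053.7, 1013.1, 2191.1 and 1967.4. Inmt, an indole methyltransferase, read 434.5, 518.5, 1205.9 and 1613.6. Acss1, the mitochondrial acetyl-CoA synthetase, read 240.8, 204.2, 678.5 and 768. This shared order was noticed in the values and nothing was tested on it.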
